A study of Caenorhabditis elegans with 2 samples.

Results

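The genes described are 53 lipid genes of the nematode Caenorhabditis elegans. They were taken from a written list of fat storage and lipid metabolism genes, and all 53 matched 1 gene each among the 19973 protein-coding genes of the Ensembl annotation (WBcel235). The list holds 12 lipases, 7 fatty acid desaturases, 5 acyl-CoA synthetases, 9 lipid-binding proteins, 7 beta-oxidation genes, 4 elongases, 2 fatty acid synthesis genes, 5 triglyceride synthesis and storage genes and 2 regulators. A region was given to a gene when its summit lay in the gene body or in the 2000 bp upstream of the annotated 5′ end, called the gene window here. A summit can lie in more than 1 window, so a region may belong to neighbouring genes at once.

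The data are chromatin immunoprecipitation with sequencing (ChIP-seq) of ETS-4 fused to GFP, from whole young adults (73 h) of strain RAF1713, of both sexes pooled and synchronised by starvation at the L1 larval stage after bleaching. The strain carries rrrSi400 on chromosome II, in which the ets-4 promoter and 3′ UTR drive ets-4 fused to GFP, with unc-119(+) as the marker, in an unc-119(ed3) III background. No mutation of the endogenous ets-4 gene is labelled. The 2 biological replicates form 1 group with no second condition, and no precipitate from worms without the tag was analysed here. In whole worms, binding in many cells and stronger binding in few cells cannot be told apart.

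Each replicate has a list of 30000 candidate regions, and so has the pool of both. The authors' irreproducible discovery rate (IDR) threshold left 1102 regions, called IDR peaks here, and these are the pooled regions of ranks 1 to 1102 by signal. The signal is the peak caller's own enrichment value, from 21.74 to 429.9 in the pooled list, and rank 1 is the highest signal. It was used only to describe or order regions within 1 list. The number of reads behind the lists is unknown, so the counting error of a region's signal could not be estimated. Since the design has no contrast and the gene list was chosen with earlier results of these data known, the counts below are descriptions with no test.

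ETS-family factors bind DNA through a winged helix domain that reads a GGAA core. In C. elegans, which has no dedicated fat tissue, fat is stored mainly in the intestine and the epidermis, in droplets that lipases mobilise and acyltransferases fill. ETS-4 is known for lowering body fat when the ribonuclease REGE-1, which degrades ets-4 mRNA, is missing. Desaturases and elongases build the worm's own polyunsaturated fatty acids, acyl-CoA synthetases activate fatty acids for every later step, and beta-oxidation breaks them down in mitochondria and peroxisomes.

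The reference sequence around 7 of the IDR peaks is shown first, the 5 strongest at the lipid genes and 2 weaker ones chosen for a marked motif. The plin-1 peak also held one and is not shown, so these lines do not give the share of peaks with a motif. Each line gives 30 bases of the plus strand of WBcel235 (RefSeq assembly, the same assembly as the files' ce11), 5′ to 3′. They surround the marked motif nearest to the summit, or the summit itself where none was found within 50 bp. Capitals mark an ETS core with its preceding base, CGGAA, or the sequence read by factors of the GATA family, TGATAA, each on either strand.
acs-1, distal region, chrV:6523104-6523133: gaccactgccgcaTTCCGaatcgagcaact
acs-1, proximal region, chrV:6524943-6524972: gtgttatctaatgCGGAAaaaataaagagc
acs-4, chrIII:7165985-7166014: gttttctaatgtgcatcttcacgaatcatg
lipl-2, chrV:9790013-9790042: gcgactctgcgcatcttgttggcacccaca
fat-3 and fat-4, chrIV:9801642-9801671: attttccataacTGATAAcgaatgaggtat
dgat-2, chrV:17659465-17659494: gacttttcaatcTTATCAgtttttttaaat
lipl-7, chrIV:10243454-10243483: ggtgcgttgagaTGATAAtgatactagttg

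Of the 53 lipid genes, 11 had an IDR peak in the window, a share of 20.8%, where 5.32% of all protein-coding genes had one. The 11 were the lipase genes lipl-2, lipl-4, lipl-7 and atgl-1, the desaturase genes fat-2, fat-3 and fat-4, the acyl-CoA synthetase genes acs-1 and acs-4, and the storage genes dgat-2 and plin-1. No lipid-binding protein, beta-oxidation, elongase, fatty acid synthesis or regulator gene had one. The 11 genes shared 12 distinct peaks in 13 gene and peak pairs, since 1 peak lay in the windows of both fat-3 and fat-4, and fat-3 and acs-1 had 2 peaks each. Counting every pooled region, IDR peaks included, 52 of the 53 had one in the window, beside 69.3% of all genes, and fat-7 was the exception. At lipl-7 the IDR peak was the only pooled region. The median number of pooled regions was 4.0 for a lipid gene and 1.0 for all genes. Counting a gene with no region as last, the strongest region had a median rank of 3202 at the lipid genes and 16050 over all genes.

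**Figure D1:**
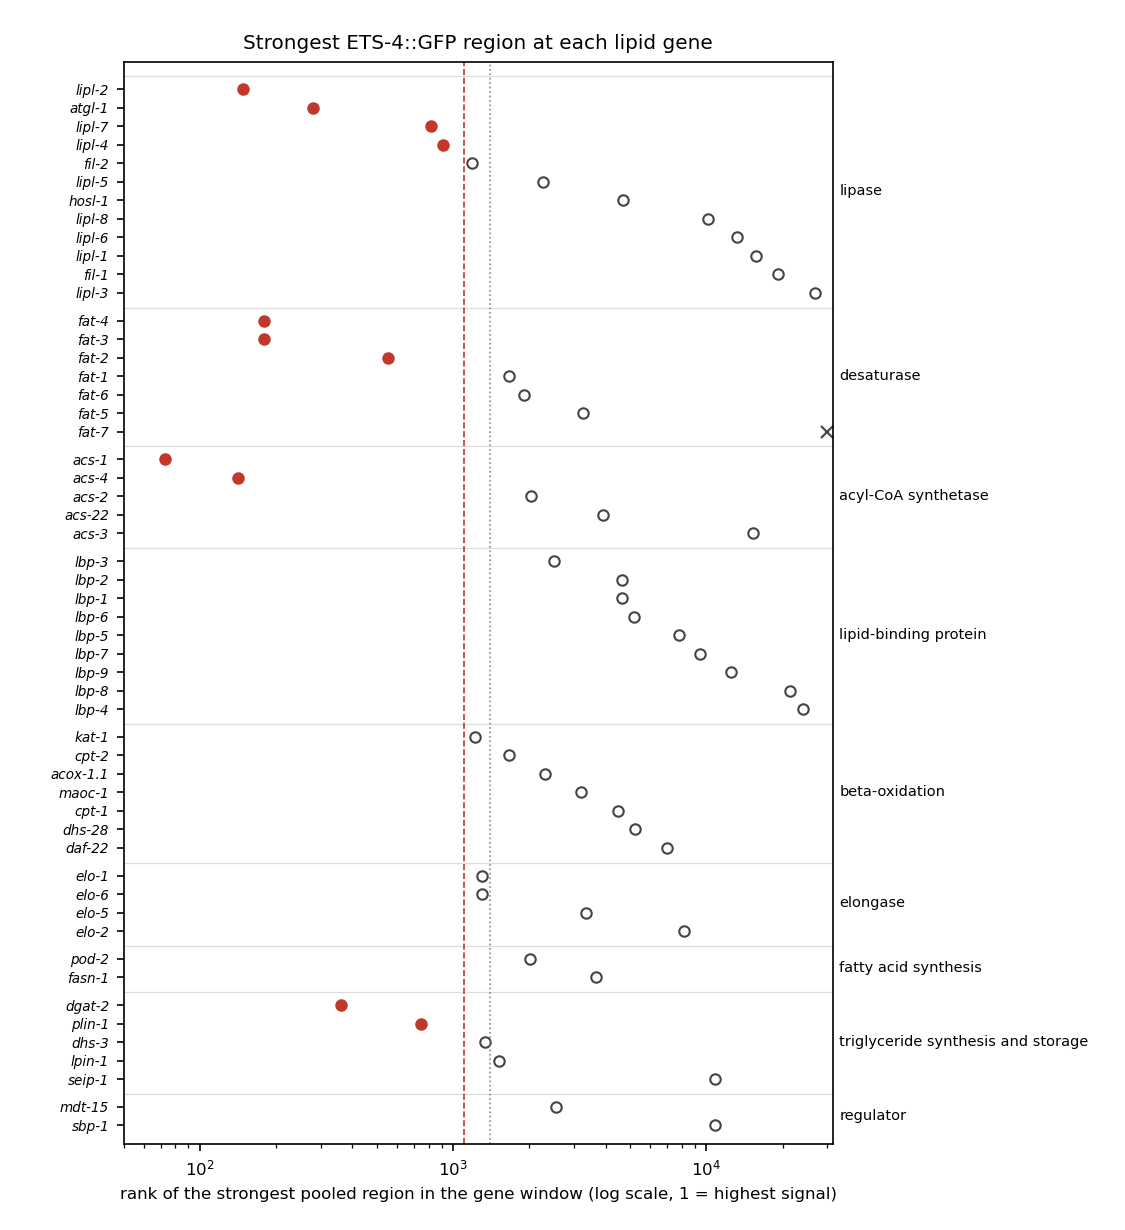
Rank of the strongest pooled region in the window of each of the 53 lipid genes, by gene class, on a log axis with rank 1 the highest signal. Filled red points are the 11 genes with an IDR peak, open points the others, the cross is fat-7 with no region, the dashed line is rank 1102 (end of the IDR list) and the dotted line rank 1393 (end of the q ceiling); the red points lie among the lipases, desaturases, acyl-CoA synthetases and storage genes.

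Longer windows have more room for a summit, so the count was set beside window length. The median window was 4160 bp for the lipid genes and 4027 bp for all genes. With all genes sorted by window length into 4 groups of about equal size, the share with an IDR peak was 3.51% in the group with the shortest windows, 3.53% and 5.18% in the middle groups and 9.07% in the longest. The lipid genes had 0 of 10, 3 of 16, 6 of 14 and 2 of 13 in the same order. Their merged windows covered 275507 bp and held 12 IDR peaks, 1 per 22959 bp, and the merged windows of all genes held 1 per 90640 bp.

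The acyl-CoA synthetases had the strongest peaks of the list. At acs-1, which is needed to make branched-chain lipids, the distal peak (V, 6522902 to 6523271, summit at -1902 bp, negative meaning upstream) had a signal of 178.5 and rank 73 in the pool, with signals of 56.91 and 116.3 and ranks 242 and 56 in replicates 1 and 2. The proximal peak (V, 6524739 to 6525108, at -65 bp) had a pooled signal of 158.2 and rank 121, and ranks 222 and 104 in the replicates. Both summits were intergenic and had acs-1 as the nearest 5′ end, and no other gene's window took them in. The acs-4 peak (III, 7165815 to 7166184, at -1838 bp) had a pooled signal of 151.4 and rank 141, with signals of 68.15 and 86.0 and ranks 118 and 185. It was intergenic too, with acs-4 as the nearest 5′ end. A second region at -449 bp from acs-4 was outside the IDR list at rank 1719, with rank 572 in replicate 1 and 11261 in replicate 2. The other 3 members had no IDR peak: acs-2, a mitochondrial enzyme induced by starvation, had its strongest region at -646 bp (rank 2037), acs-22, a fatty acid transport protein homologue, in a coding exon (rank 3910), and acs-3 in a coding exon (rank 15264).

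Among the desaturases, fat-3 and fat-4, whose enzymes act in the synthesis of long polyunsaturated fatty acids and which lie next to each other on chromosome IV, shared their strongest peak. This peak (IV, 9801466 to 9801835) had a pooled signal of 140.9 and rank 179, with signals of 47.41 and 98.17 and ranks 450 and 119 in replicates 1 and 2. Its summit lay at -1372 bp from the 5′ end of fat-3 and at 2222 bp from that of fat-4, in an annotated intron, and at -254 bp from the nearest annotated fat-4 transcript start. Which of the 2 genes it belongs to cannot be told from position. A second peak lay in a fat-3 intron (IV, 9803616 to 9803985, at 778 bp), at -717 bp from the nearest annotated fat-3 transcript start. It had a signal of 92.91 and rank 722, with ranks 1086 and 921. The fat-2 peak (IV, 13322422 to 13322791, at -1266 bp, intergenic) had a signal of 102.3 and rank 554, with ranks 894 and 754. FAT-2 makes linoleic acid from oleic acid, the step that feeds the polyunsaturated pathway.

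The remaining desaturases had no IDR peak. The regions of fat-1, the omega-3 desaturase gene, began with pooled ranks of 1667, 1864 and 1983. For the enzymes that desaturate saturated fatty acids, fat-6 had a best rank of 1903 and fat-5 of 3258, and fat-7 had no region in any of the 3 lists of 30000. The replicate regions that overlapped this fat-6 region most stood higher than it did in the pool, at rank 462 in replicate 1 and 803 in replicate 2. Their summits lay at -31 and 249 bp from the pooled summit in coordinate. The replicate 2 summit was 6 bp from that of another pooled fat-6 region, of rank 4453. Taking the 1102 strongest regions of 1 replicate alone, 5 desaturases were called from replicate 1 (fat-1, fat-2, fat-3, fat-4 and fat-6) and 4 from replicate 2 (fat-2, fat-3, fat-4 and fat-6). The share of all genes called was 5.56% and 5.46%.

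The lipase class was split. The lipl-2 peak (V, 9789843 to 9790212) had a pooled signal of 149.0 and rank 148, with ranks 880 and 67 in replicates 1 and 2. The atgl-1 peak (III, 6421045 to 6421414) had a signal of 123.5 and rank 279, with ranks 410 and 287; ATGL-1 is the worm's adipose triglyceride lipase, which opens the breakdown of stored fat. The lipl-7 peak (IV, 10243254 to 10243623) had a signal of 88.78 and rank 821, and its replicate ranks were far apart, 6324 and 374. At lipl-4, a lysosomal acid lipase gene known for lengthening life when overexpressed, the peak (V, 6551748 to 6552117) had a signal of 85.53 and rank 909, with ranks 1404 and 1016.

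Of these lipase peaks, the one at atgl-1 had the lipase gene as its nearest 5′ end, although its summit at -1771 bp lay in the 3′ UTR of the neighbouring gene C05D11.8. The lipl-2 summit was at -1539 bp from lipl-2, in an exon of the noncoding RNA gene F46B6.15, and at -321 bp from ztf-7. The lipl-7 summit was at -1616 bp from lipl-7 and at -173 bp from tkt-1, a transketolase gene. The lipl-4 summit was in the 3′ UTR of lipl-4, at -407 bp from twk-10, a potassium channel gene, and within 200 bp of the region was a tRNA gene. With each peak given to the nearest 5′ end, 1 of the 12 lipases was called (atgl-1) and 9 of the 53 genes, beside 4.94% of all genes. Of these 9, 6 had an IDR peak in the window, and fat-1, cpt-1 and lpin-1 had none.

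The best ranks of the other 8 lipases ran from 1190 to 26934 of the 30000 pooled regions. The fasting-induced lipase gene fil-2 had a region at -634 bp (V, 6278212 to 6278581, signal 77.29) of rank 1190 in the pool. The replicate regions that overlapped it most had ranks 649 in replicate 1 and 599 in replicate 2. Their summits were at -183 and 9 bp from the pooled summit. For lipl-5 the best rank was 2271 and for hosl-1, a homologue of hormone-sensitive lipase, 4684. The best ranks of lipl-8, lipl-6, lipl-1, fil-1 and lipl-3 were between 10160 and 26934. These weak regions lie where the lists hold background as well as peaks, and their -log10 q was between 0.0883 and 0.521. Of these genes, lipl-1 and lipl-3 encode lysosomal lipases induced by fasting. At fil-1, the other fasting-induced lipase gene of the list, the only pooled region was at -1662 bp, in a coding exon of T01C3.3, with rank 19155.

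Of the genes that make and hold triglyceride, dgat-2 and plin-1 had IDR peaks. DGAT-2 adds the last acyl chain to triglyceride. Its peak (V, 17659312 to 17659681, at -806 bp, intergenic) had a signal of 115.4 and rank 362, with near equal ranks of 386 and 388 in the replicates, but the summit was at -112 bp from fbxa-108. The plin-1 gene encodes the droplet coat protein perilipin. Its peak (I, 7059009 to 7059378, signal 91.72, rank 745) had its summit in a coding exon 2002 bp downstream of the 5′ end. In replicate 2 it had rank 537, while in replicate 1 the region with the largest overlap had rank 3686 and another that overlapped it in part had rank 498. The strongest regions of dhs-3, which encodes a droplet dehydrogenase, and of lpin-1, the lipin gene, had ranks 1333 and 1513, and that of seip-1, the seipin gene, had rank 10822. The dhs-3 region also lay in a coding exon of gla-3, a gene that overlaps it.

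Beta-oxidation genes had no IDR peak in the window, in 0 of 7, beside 5.32% of all genes; a class this small is near that share with 0 genes. Their strongest regions were at kat-1, a mitochondrial thiolase gene (II, 7073157 to 7073526, at -472 bp, signal 76.91, rank 1216, ranks 817 and 1837 in replicates 1 and 2), and at cpt-2 (at -249 bp, rank 1662). The cpt-2 region had rank 3511 in replicate 1, and no region of the replicate 2 list overlapped it. With replicate 1 alone, kat-1 was called, 1 of 7 beside 5.56% of all genes, and with replicate 2 alone 0 of 7 beside 5.46%. Among the peroxisomal genes, which shorten the side chains of ascaroside pheromones, the best ranks were 2314 for acox-1.1, 3202 for maoc-1, 5233 for dhs-28 and 7006 for daf-22. The gene cpt-1, whose product carries fatty acids into mitochondria with carnitine, had a best rank of 4495 in its window. An IDR peak of rank 91 (II, 12798776 to 12799145, signal 170.4) lay outside the window at -2509 bp, with cpt-1 as its nearest 5′ end.

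Elongases and fatty acid synthesis genes also had none in the window, 0 of 4 and 0 of 2, too few genes to stand apart from a share of 5.32%. Regions at elo-1 (at -250 bp, rank 1299) and elo-6 (at -1567 bp, rank 1303, and at -250 bp, rank 1365) followed closely on the IDR list, while elo-5 and elo-2 had best ranks of 3348 and 8188. The elo-6 region at -1567 bp had htp-1 as its nearest 5′ end, at 1431 bp, and also lay in the window of ZK616.5. ELO-5 and ELO-6 make branched-chain fatty acids, and ELO-1 and ELO-2 lengthen straight ones. The acetyl-CoA carboxylase gene pod-2 had 15 pooled regions in a window of 17921 bp, the best of rank 2017, and the fatty acid synthase gene fasn-1 had 7 in 13175 bp, the best of rank 3650.

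All 9 lipid-binding protein genes lacked an IDR peak, beside 5.32% of all genes with one. None gained one under the wider 5000 bp window, which called 8.17% of all genes. A class of 9 genes is near both shares with 0 called. The products of the lipid-binding protein genes carry fatty acids inside or outside cells. The best ranks ran from 2510 at lbp-3 (X, at -369 bp) to 24156 at lbp-4, with a median of 7799. The genes lbp-1 and lbp-2, neighbours on X, share 1 pooled region of rank 4661. These genes are short, with windows between 2592 and 3081 bp, all in the group of shortest windows, of which 3.51% over all genes had an IDR peak. Of the regulators, the Mediator subunit gene mdt-15 had a best rank of 2555, with rank 500 in replicate 1 and 6413 in replicate 2, and sbp-1, the gene of the sterol regulatory element binding protein, had 10829.

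Just below the IDR list, 291 further pooled regions had the same -log10 q of 3.44, the ceiling of the list. Counting these, 16 of the 53 genes were called, beside 6.70% of all genes. The added genes were fil-2, kat-1, elo-1, elo-6 and dhs-3. The signals of these regions in the pool were between 73.96 and 77.29, under the lowest IDR signal of 79.42.

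Summit positions were taken from the outermost annotated 5′ end of the listed gene. Of the 13 gene and peak pairs, 7 had the summit more than 1000 bp upstream of the 5′ end (53.8%), 2 had it within 1000 bp upstream and 4 in the gene body. Over all 1192 pairs of a protein-coding gene and an IDR peak, 21.7%, 40.4% and 37.9% fell in these 3 bins. Of the 7 summits more than 1000 bp upstream, 3 were close to another start, those at lipl-2 (-321 bp from ztf-7), lipl-7 (-173 bp from tkt-1) and fat-3 (-254 bp from a fat-4 transcript start). A promoter from 1000 bp upstream to 200 bp downstream called only acs-1 and dgat-2, 2 of 53 genes (3.77%) beside 2.59% of all genes. With 1000 bp upstream and the gene body, 6 of 53 were called, beside 4.22% of all genes, and with 5000 bp upstream 16 of 53, beside 8.17%. The 5000 bp window added fil-2, fat-5, cpt-1, lpin-1 and mdt-15. Of the peaks it brought in, those near lpin-1 (at -2453 and -2673 bp, ranks 536 and 989) and cpt-1 had the lipid gene as nearest 5′ end, and those at fil-2, fat-5 and mdt-15 lay nearer to another gene's. A further peak at -4950 bp from fat-2 (rank 437) had fat-1 as its nearest 5′ end. In windows of a single kind, chosen after seeing the data, the gene body alone called 4 of 53 (lipl-4, fat-3, fat-4 and plin-1), beside 1.98% of all genes, and the 2000 bp upstream alone called 8 of 53, beside 3.56%. Any overlap of a peak with the window, in place of its summit, called 12 of 53, beside 5.85%, and added fat-1. By annotation, 6 of the 12 peaks had intergenic summits, 2 were in introns, 2 in 3′ UTRs, 1 in a coding exon and 1 in a noncoding exon. Over all IDR peaks, the shares in the same order were 51.9%, 26.8%, 1.91%, 7.89% and 8.08%. Among all 205 pooled regions in the lipid gene windows, 52.2% had the summit in a coding exon.

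**Figure D2:**
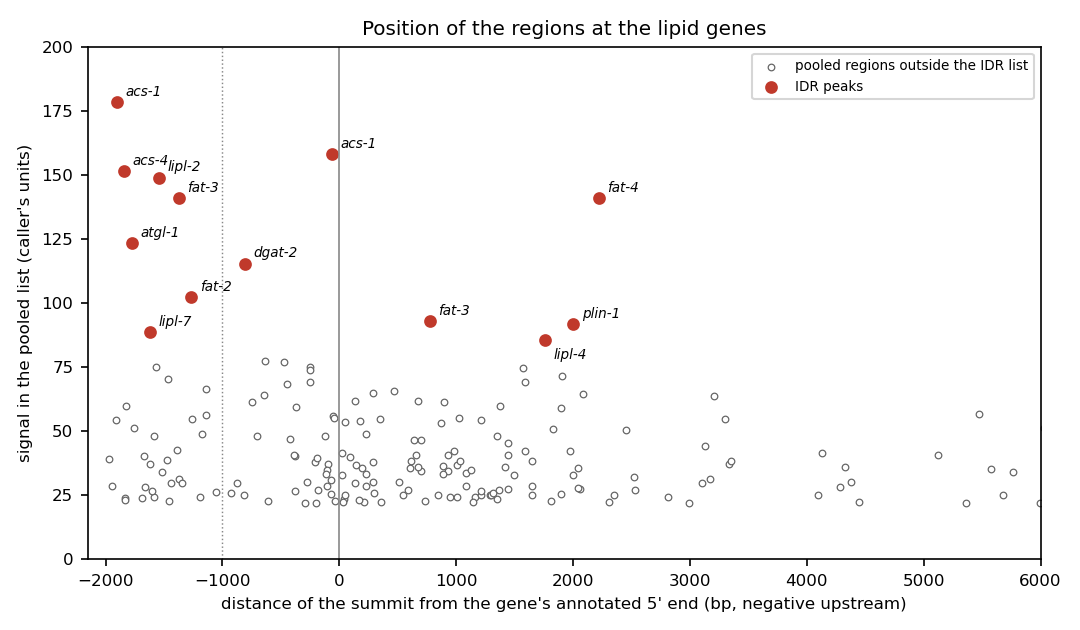
Signal of each pooled region against the distance of its summit from the annotated 5′ end of the lipid gene, in bp, with the gene start as a solid line and 1000 bp upstream as a dotted line. Red points are the 13 IDR peak and gene pairs, open points are other pooled regions, and 19 pairs beyond 6000 bp are not drawn; 7 red points lie left of the dotted line.

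**Figure D3:**
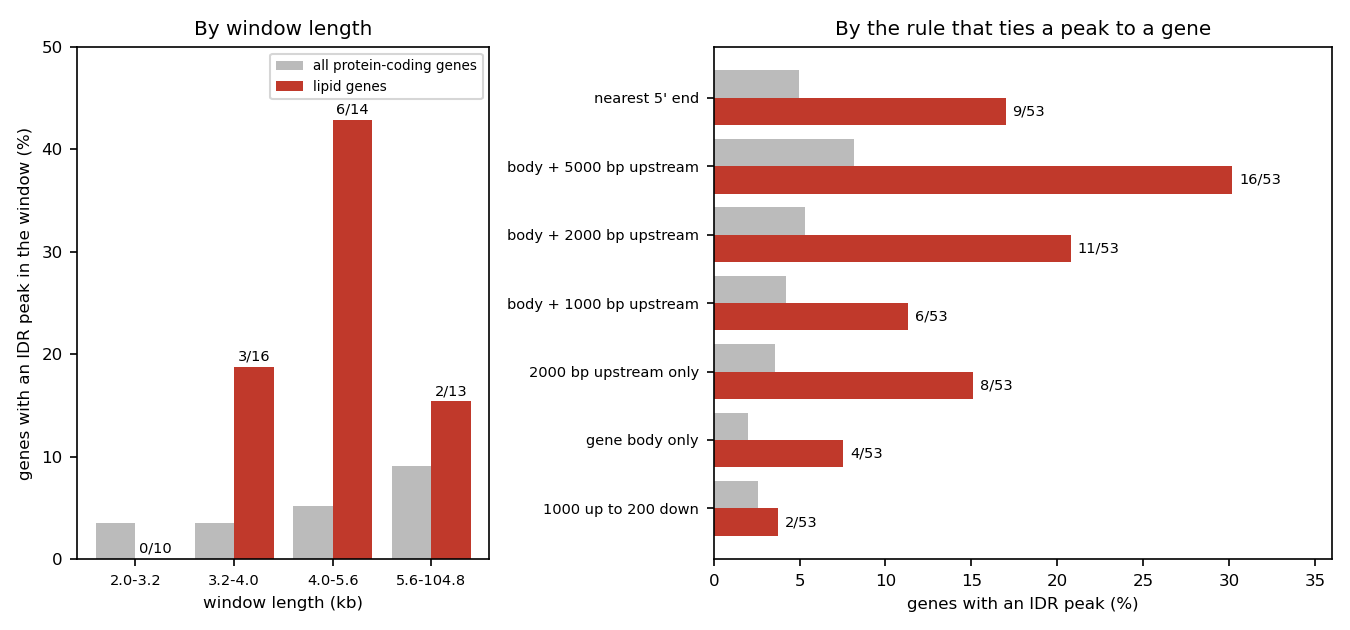
Left, share of genes with an IDR peak in the window for all protein-coding genes (grey) and the lipid genes (red) in 4 groups of window length, shortest first; right, the same shares under 7 rules that tie a peak to a gene. Counts of lipid genes stand at the red bars, which reach 6 of 14 genes in the third group of length and fall to 2 of 53 with the 1000 bp promoter.

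The replicates were compared at the 12 peaks through the region of each list that overlapped the peak most. All 12 were among the 1102 strongest regions of replicate 2 and 9 among those of replicate 1. The exceptions were lipl-4, plin-1 and lipl-7, at ranks 1404, 3686 and 6324 in replicate 1. Ranks were better in replicate 2 for 10 peaks and in replicate 1 for acs-4 and dgat-2. Over all 1102 IDR peaks, 874 were among the 1102 strongest of replicate 2, 731 among those of replicate 1 and 51.3% among both. Ranks were better in replicate 2 for 620 of all IDR peaks and in replicate 1 for 477. Replicate summits lay a median of 6.5 bp (replicate 1) and 13.5 bp (replicate 2) from the pooled summit, and at most 71 and 103 bp. IDR peaks overlapped over at least 50% of their length by 1 of the 1102 strongest regions of each replicate called 8 of 53 genes, beside 2.94% of all genes, and left out lipl-4, lipl-7 and plin-1. The 551 strongest IDR peaks called 7 of 53, beside 2.88%: acs-1, acs-4, lipl-2, atgl-1, fat-3, fat-4 and dgat-2. Without peaks within 200 bp of a small RNA gene, 10 of 53 were called, beside 4.54%, lipl-4 being left out. Outside the IDR list, pooled regions at fil-2 and fat-6 overlapped a region among the 1102 strongest of each replicate. The 2 replicates' summits there were apart, at -183 and 9 bp from the pooled summit at fil-2. At fat-6 they were at -31 and 249 bp.

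**Figure D4:**
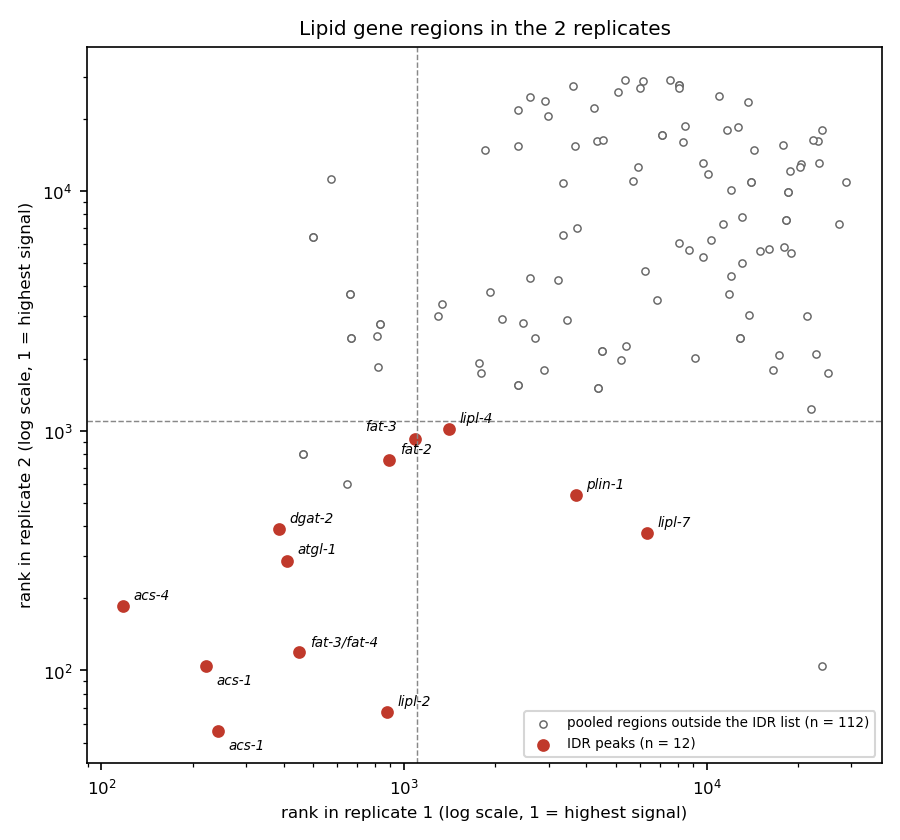
Rank in replicate 1 against rank in replicate 2, both on log axes, of the 124 pooled regions in lipid gene windows that overlap a region in both replicates' lists; dashed lines mark rank 1102. Red points are the 12 IDR peaks, all below the line of replicate 2 and 9 left of the line of replicate 1; 2 pooled regions can share 1 replicate region.

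Sequences were searched on both strands within 50 bp of the 12 summits, and a match is a description of these letters only. The longer ETS sequences CCGGAA and CCGGAT were in none of the 12 windows, where 3.72% and 1.63% of all IDR peaks held them. Of the pooled regions outside the IDR list, 5.11% and 2.93% held them. CGGAA was in 3 of 12, both acs-1 peaks and plin-1, beside 15.4% of all IDR peaks and 19.6% of the pooled regions outside the IDR list. The bare core GGAA was in 6 of 12, beside 55.5% and 66.1%. TGATAA, which does not overlap these words, was in 3 of 12, the shared fat-3 and fat-4 peak, dgat-2 and lipl-7, with 2 copies in each of these windows. It was in 27.0% of all IDR peaks and 9.83% of the other pooled regions. The forkhead sequence TGTTTAC and the E-box CACGTG were in none of the 12, beside 2.09% and 5.35% of all IDR peaks. In the other pooled regions their shares were 1.14% and 2.89%. Mean GC content was 42.7% in the 12 windows, 46.7% over all IDR peaks and 43.0% in the other pooled regions. In the other 6 windows, at acs-4, lipl-2, fat-2, atgl-1, lipl-4 and the fat-3 intron peak, neither CGGAA nor TGATAA was found.

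A further list of 34 lipid genes outside the 53, with other elongases, synthetases, acyltransferases, oxidation enzymes and nuclear receptors, had an IDR peak in 4 (11.8%), beside 5.32% of all genes. These were the acyl-CoA synthetase genes acs-5 (III, 13544654 to 13545023, at -1305 bp, rank 138) and acs-13 (I, 518360 to 518729, at 1101 bp, rank 450), the acyltransferase gene acl-6 (V, 5433088 to 5433457, at -113 bp, rank 298) and the nuclear receptor gene nhr-66 (IV, 8229593 to 8229962, at 6824 bp, rank 548). The receptor genes nhr-49 and nhr-80, regulators of desaturation and fat oxidation, had best ranks of 1595 and 1669. The median window of this list was 5779 bp, longer than that of the 53 genes.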

How the data were processed

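The 4 deposited region lists (narrowPeak) are on ce11, whose coordinates equal those of WBcel235 (the last region of each of the 6 chromosomes ended within the reference length). Per the text files deposited beside the lists, each replicate was called against a control file, both were then called as a pool, and the IDR list was drawn from these lists. Each region's signal is the authors' caller value, and its -log10 q, as deposited, has 1 ceiling per list. The sources used here name neither the aligner, the caller nor the IDR threshold, and depth is unknown. Per the labels, the antibody was against GFP, while their antibody field names ets-4.

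Gene windows, distances and annotation came from Ensembl release 115, and bases from the RefSeq genome. A 5′ end is the gene's outermost one, and many worm transcripts are trans-spliced. Annotation classes were taken in the order coding exon, UTR, intron, noncoding exon. The rule for named genes took every member with an IDR peak in full and the others by their strongest region. Members, lists and motifs were chosen with earlier results of these data known. The 11 alternatives and 2 more added after seeing the data are in the closing section. The assignment was tested on simulated summits. Python 3.11.15, numpy 2.4.6, pandas 2.3.3 and matplotlib 3.10.9 were used.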

Additional observations from a re-analysis of the deposited data

How the results depend on the processing

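No paired analysis was possible because there is 1 group. The count of 11 lipid genes with an IDR peak (5.32% of all genes) was 6 with 1000 bp upstream (4.22%) and 2 with the promoter (2.59%). It was 16 with 5000 bp upstream (8.17%), 9 with the nearest 5′ end (4.94%) and 16 with the q ceiling (6.70%). The nearest 5′ end kept only 6 of the 11 genes and added fat-1, cpt-1 and lpin-1. The 551 strongest IDR peaks gave 7 (2.88%). In 2 windows added after seeing the data, the count was 4 with the gene body alone (1.98%) and 8 with 2000 bp upstream alone (3.56%). With the 1102 strongest regions of 1 replicate, the count was 14 for replicate 2 (5.46%) and 16 for replicate 1 (5.56%). Of the 11 genes, all were called from replicate 2 and 9 from replicate 1. Any overlap gave 12 (5.85%), 50% overlap in both replicates 8 (2.94%), and peaks over 200 bp from small RNA genes 10 (4.54%, without lipl-4). The class counts that follow stand beside the same shares of all genes, setting by setting. Of the lipases 4 became 1 with 1000 bp upstream or the nearest 5′ end, 0 with the promoter and 2 with the strongest peaks or 50% overlap. They were 3 to 6 with 1 replicate, 5 with 5000 bp upstream or the q ceiling, and 3 without peaks near small RNA genes. Of the desaturases 3 became 0 with the promoter and 2 with 1000 bp upstream or the strongest peaks. They were 4 with 5000 bp upstream or any overlap, and 4 to 5 with 1 replicate. Of the acyl-CoA synthetases 2 became 1 with 1000 bp upstream or the promoter, and stayed 2 with either replicate. Beta-oxidation went from 0 to 1 with 5000 bp upstream, the nearest 5′ end (cpt-1) or the q ceiling (kat-1), and was 0 to 1 with 1 replicate; lipid-binding proteins were 0 throughout. Only acs-1 among the 11 genes was called under all 11 alternatives that were not added after seeing the data. Within 100 bp of the summits, CGGAA and TGATAA were each in 5 of 12 windows (41.7%, beside 29.7% and 40.2% of all IDR peaks), GGAA in 8 (66.7%, beside 81.5%) and CACGTG in 1 (8.33%, beside 9.80%). Why the counts differ between the rules that tie peaks to genes was not tested. Depth is unknown, so how far it limits these calls is unknown too.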
